A study of Mus musculus with 3 samples.

Results

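The cells described here are CD8 T cells of MC38 tumours whose RNA was richest in a small set of interferon-induced genes. MC38 is a mouse colon carcinoma line grown as a tumour in mice. Cells were chosen by the summed UMIs (unique molecular identifiers, each standing for 1 captured transcript) of Ifit1, Ifit2, Ifit3, Rsad2, Cmpk2 and Usp18 per 10000 UMIs of the cell. Gated CD8 cells had at least 500 genes, at least 1000 UMIs, under 10% mitochondrial UMIs, at least 1 UMI of a CD3 gene and of Cd8a or Cd8b1, and no UMI of Cd4 or Foxp3. The 10% with the highest score, pooled over the libraries, are called interferon-responding cells, and they numbered 2038 of 20380 gated CD8 cells and of 27340 barcodes in all.

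There were 3 libraries of T cells sorted by CD3 staining, labelled PBS, mix and homo, from tumours taken at day 15 after 5 days of treatment. The series title concerns an interleukin-2 directed to LAG3, but what mice of the mix and homo groups received, their strain and age, and how many animals entered a library are not given in the labels. Each group is 1 library, so no comparison below has a replicate check, a test or a p-value. Ratios carry an exact 95% interval for counting error only, and the groups cannot be told apart from their tumours, digests or library preparations. The libraries held 10351 barcodes and 56427870 UMIs in PBS, 8461 and 49179708 in mix, and 8528 and 65336646 in homo. Between 100 and 131 barcode sequences occurred in both libraries of a pair, and 17, 15 and 10 interferon-responding cells in PBS, mix and homo carried such a barcode. Doublets were not removed by the rule: cells with the highest doublet scores made up 4%, 3.44% and 0.686% of interferon-responding cells and 6.95%, 4.44% and 6.17% of the other gated CD8 cells in PBS, mix and homo.

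Interferons are secreted proteins that cells release on sensing viral or other nucleic acids, and T cells themselves release interferon gamma. Type I interferon binds the receptor chains IFNAR1 and IFNAR2, and the kinases JAK1 and TYK2 then phosphorylate STAT proteins, which join IRF9 and bind interferon-stimulated response elements (ISRE) in the promoters of target genes. Interferon gamma acts through its own receptor and gamma-activated sites (GAS), and the target genes of the pathways overlap widely. In tumours, T cells with high levels of these targets are seen as a recurrent state in single-cell data.

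The 6 genes of the score are classic targets of this pathway. Ifit1, Ifit2 and Ifit3 encode proteins that bind foreign RNA, Rsad2 encodes viperin, which makes a chain-terminating nucleotide, Cmpk2 encodes a mitochondrial nucleotide kinase, and Usp18 encodes a protease that removes ISG15 from proteins and dampens the interferon receptor. Promoter sequences of genes whose values follow are shown first, because they hold the motif of this pathway. They come from RefSeq on build GRCm38.p6, written on the gene's strand from just before the first motif up to the annotated start. Capitals mark each ISRE core, GAAANNGAAA, read on either strand. The first 3 genes belong to the score, and Isg15 and Gbp2 do not.
Ifit3, chr19:34583353-34583528, plus strand: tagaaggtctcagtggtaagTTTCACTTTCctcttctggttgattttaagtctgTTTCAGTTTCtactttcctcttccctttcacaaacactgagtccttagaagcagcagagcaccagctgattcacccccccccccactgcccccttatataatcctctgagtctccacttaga
Ifit1, chr19:34640765-34640888, plus strand: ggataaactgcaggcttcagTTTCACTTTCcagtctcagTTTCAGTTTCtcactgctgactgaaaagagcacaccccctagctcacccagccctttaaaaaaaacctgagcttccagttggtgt
Rsad2, chr12:26456453-26456592, minus strand: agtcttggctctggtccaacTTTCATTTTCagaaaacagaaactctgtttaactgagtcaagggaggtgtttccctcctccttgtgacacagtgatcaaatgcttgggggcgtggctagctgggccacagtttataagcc
Isg15, chr4:156200819-156200918, minus strand: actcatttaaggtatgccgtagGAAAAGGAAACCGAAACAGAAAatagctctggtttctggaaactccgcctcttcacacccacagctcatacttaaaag
Gbp2, chr3:142620563-142620662, plus strand: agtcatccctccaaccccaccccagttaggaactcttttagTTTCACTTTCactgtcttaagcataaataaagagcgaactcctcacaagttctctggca

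Ifit3 held an ISRE core 156 bases and another 122 bases before its start, and Ifit1 held a pair at 104 and 85 bases. Rsad2 held 1 at 120 bases. In Isg15, 3 cores overlapped, at 78, 72 and 66 bases before the start. Gbp2, which encodes an interferon-induced GTPase, held 1 at 59 bases. Ifit2 and Cmpk2 had no match in the window searched, which runs from 250 bases before to 50 after the start, and Usp18 is named only. The position is read from the motif's first base on the printed strand.

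The score of the gated CD8 cells was skewed in each library. Its median was 4.68 in PBS, 6.71 in mix and 2.88 in homo. Of the gated cells, 24.6%, 17.5% and 27.8% held no UMI of the 6 genes. The limit of the top 10% fell at a score of 32.0285. The cells nearest to it scored 32.0285 and 32.0293 just inside and 32.0171 and 32.0128 just outside. The class is a range of the score set by this limit and is not given as a cell type. Within 10% of the limit lay 315 cells inside and 344 outside. Interferon-responding cells scored 47.4 at the median in PBS, 45.2 in mix and 44.3 in homo. The highest cells scored 222, 196 and 158.

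These cells carried fewer UMIs than the other gated CD8 cells. Their median was 3824 UMIs against 5390 in PBS, 4519.5 against 5922 in mix and 5621 against 7245 in homo. Mitochondrial RNA made up a median of 0.312% of UMIs against 0.338% in PBS, 0.324% against 0.356% in mix and 0.492% against 0.571% in homo. At the median they held 20, 21 and 27 UMIs of the 6 genes in PBS, mix and homo, and the other cells held 2, 3 and 2. At least 5 of the 6 genes were found in 71.4%, 75.2% and 84.7% of interferon-responding cells of PBS, mix and homo, against 7.96%, 12.3% and 10.6% of the other cells.

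The levels of the 6 genes are those the cells were chosen by and are a description only. Levels are UMIs of a gene per 1000000 UMIs (CPM), from the pooled UMIs of all cells of a class within 1 library. Ifit3 stood at 2032 CPM in interferon-responding cells and 216 CPM in other gated CD8 cells in PBS, at 1836 and 246 in mix, and at 1677 and 153 in homo. Rsad2 stood at 635 and 56.2 CPM in PBS, 599 and 72.6 in mix, and 618 and 43.5 in homo. Usp18 stood at 802 and 147 CPM in PBS, 865 and 210 in mix, and 776 and 126 in homo. To measure the same genes in UMIs that did not serve the choice, every UMI was put at random into 1 of 2 equal sets, and cells were chosen on the first set and measured in the second. Of the 2039 cells chosen on the first set, 1381 (67.7%) were also among those chosen on the second. In the unused set, Ifit3 was 7.96-fold higher in the chosen cells than in the rest in PBS, 6.46-fold in mix and 9.59-fold in homo. Rsad2 was 9.18-fold, 6.54-fold and 12.2-fold higher, and Usp18 4.81-fold, 3.67-fold and 5.50-fold higher.

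**Figure D1:**
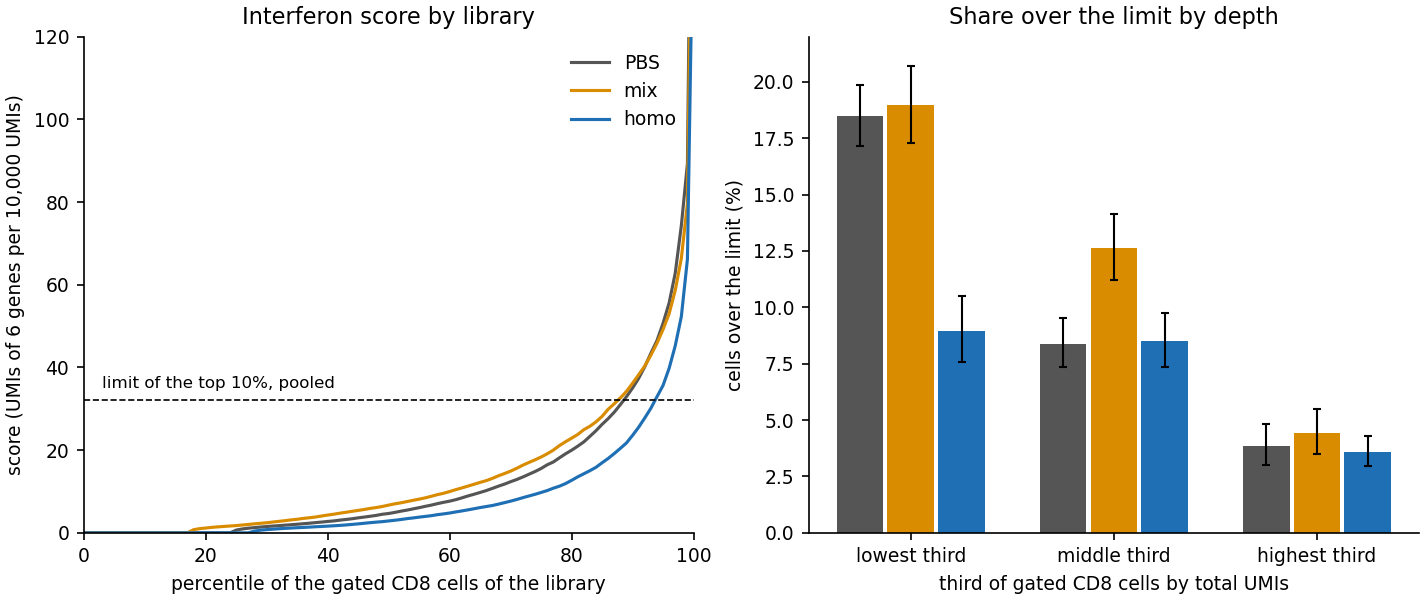
Left, the score of the gated CD8 cells (y axis, UMIs of 6 genes per 10000 UMIs, drawn up to 120) at each percentile of a library (x axis), with the pooled limit of the top 10% as a dashed line. Right, the percent of gated CD8 cells over the limit in each tertile of gated cells by total UMIs, with exact 95% counting intervals; the homo bar is about as high as the PBS bar in the middle and highest tertiles and lower in the lowest tertile.

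Interferon-responding cells made up 11.48% of the gated CD8 cells in PBS (875 of 7621, exact Clopper-Pearson 95% interval 10.8 to 12.2%), 12.4% in mix (726 of 5839, 11.6 to 13.3%) and 6.32% in homo (437 of 6920, 5.75 to 6.91%). The share in PBS was 1.82-fold and the share in mix 1.97-fold the share in homo, and the mix share was 1.08-fold the PBS share (interval 0.987 to 1.19). Depth moved with this difference. Gated cells of all libraries were ranked by UMIs and cut into 3 equal parts (tertiles). In the tertile with the fewest UMIs (under 4702), the share was 18.5% in PBS, 19.0% in mix and 8.96% in homo. In the middle tertile it was 8.39%, 12.6% and 8.49%, and in the highest tertile (from 7452 UMIs) 3.86%, 4.42% and 3.58%. The lower share of homo against PBS was thus found among the cells with the fewest UMIs and not in the other tertiles. When every cell was instead thinned to 2000 UMIs and the top 10% chosen again, the log2 ratio of shares was -0.76 for homo over PBS, against -0.86 without thinning, over the 7264, 5515 and 6515 gated cells of PBS, mix and homo with enough UMIs. The part of depth in the difference was not tested further.

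T cells outside the CD8 gate were scored with the same genes and limit. Regulatory T cells, marked by Foxp3 and without CD8 genes, were over the limit in 13.2% of cells in PBS (112 of 850, 11.0 to 15.6%), 18.04% in mix (147 of 815, 15.5 to 20.9%) and 4.84% in homo (6 of 124, 1.80 to 10.2%). Cells that held Cd4 but neither Foxp3 nor a CD8 gene were over it in 22.5% in PBS (73 of 325), 22.6% in mix (72 of 319) and 4.29% in homo (3 of 70, 0.893 to 12.02%). The order of the libraries was the one seen in CD8 cells, homo lowest, with few cells behind the homo values. Median depth was 3118.5 UMIs in PBS, 3472 in mix and 3368 in homo for the Foxp3 cells, and 2516, 3223 and 3424.5 for the Cd4 cells, so these cells were shallower than CD8 cells.

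Within each library, interferon-responding cells were then compared with the other gated CD8 cells of that library. A gene was counted when it reached at least 50 CPM in either class, and called higher or lower at a ratio of at least 1.5-fold. In PBS, 339 of 3116 genes (10.9%) were higher and 177 (5.68%) lower. The counts were 279 (9.03%) and 138 (4.47%) of 3090 in mix, and 291 (9.69%) and 145 (4.83%) of 3002 in homo. The median over all counted genes was a log2 ratio of -0.07 in PBS, -0.06 in mix and -0.09 in homo. Of the 2801 genes counted in all 3 libraries, 221 were higher in each and 57 were lower in each. Outside the 6 score genes 215 were higher in each, and 83 of these stand on lists of interferon genes. The share of all 2801 genes that stand on these lists was not computed, so the 83 is a description only. The count of 57 was 22 with cells thinned to 2000 UMIs, 26 with a score without the Ifit genes, 28 with the mean of per-cell CPM and 29 with the top 20% chosen. Because the score rests on interferon targets, genes that vary with it were brought along by the choice, and the values describe the class.

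The chemokine gene Cxcl10 and antiviral genes led the higher side. Cxcl10, a chemokine that draws T cells through CXCR3, stood at 198 CPM in interferon-responding cells and 16.7 CPM in others in PBS, at 216 and 24.02 in mix, and at 150 and 7.52 in homo. That is 11.9-fold, 8.997-fold and 19.96-fold, or a log2 ratio of 3.57 (3.42 to 3.72), 3.17 (3.03 to 3.31) and 4.32 (4.12 to 4.52). The 5 cells with the most Cxcl10 held 16.0%, 17.1% and 36.3% of its UMIs in interferon-responding cells of PBS, mix and homo. Isg15, a ubiquitin-like protein that is attached to other proteins, stood at 3058.5 and 568 CPM in PBS, 2702.5 and 636 in mix, and 2264 and 358 in homo. Its ratio was 5.38-fold, 4.25-fold and 6.33-fold. Slfn5, a Schlafen family gene, reached 434 CPM against 49.4 in PBS, 321 against 52.3 in mix and 303 against 39.8 in homo. The classes lay far apart in each library for these 3 genes, with the smallest ratio in mix each time.

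Also among the 12 highest genes, Ifit3b, second in rank after Cxcl10, is a near copy of Ifit3. UMIs of such pairs can be split or lost in counting, so its log2 ratios of 3.41, 3.07 and 3.59 in PBS, mix and homo are uncertain. Ifit1bl1, a relative of Ifit1, gave 2.83, 2.45 and 2.75, and whether its UMIs are split with related genes was not tested. Oasl2 and Oasl1, relatives of the enzymes that activate RNase L, gave log2 ratios of 2.48, 2.44 and 2.68, and of 2.59, 2.26 and 2.78. Tor3a, a member of the torsin ATPase family, gave 2.49, 2.13 and 2.41, and Daxx, a histone chaperone, 2.36, 2.05 and 2.19. Ifi204, of a family of DNA-binding proteins with close copies, gave 2.63, 2.12 and 3.14.

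Antiviral interferon-stimulated genes were higher nearly throughout. Of the 53 genes on this list, 46 were counted in PBS with 43 higher and 1 lower, 47 in mix with 44 higher and 1 lower, and 46 in homo with 43 higher and 1 lower, at median log2 ratios of 1.44, 1.25 and 1.51. Bst2, which tethers virus particles to the cell surface, stood at 1786 and 743 CPM in PBS, 1766 and 863 in mix, and 1208 and 478 in homo. Samhd1, which breaks down nucleotides, stood at 907 and 230 CPM in PBS, 821 and 269 in mix, and 1069 and 299.5 in homo. Bst2 was lowest and Samhd1 highest in the interferon-responding cells of homo. The exception was Ifi27, at 82.9 CPM against 140 in PBS, 71.2 against 117 in mix and 96.8 against 154 in homo, a log2 ratio of -0.76, -0.72 and -0.67. Its relative Ifi27l2a gave log2 ratios of 0.56, 0.41 and 0.84, past 1.5-fold in homo.

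Sensors of RNA and DNA followed the same pattern. Of 22 listed, 14 were counted in each library, 12 of them higher and none lower, with median log2 ratios of 1.58, 1.31 and 1.59 in PBS, mix and homo. Ifih1, which encodes the RNA sensor MDA5, stood at 257 and 55.6 CPM in PBS, 261 and 63.4 in mix, and 249 and 45.7 in homo. Ddx58, which encodes RIG-I, had log2 ratios of 1.51, 1.28 and 1.62, and Zbp1, a sensor of Z-form nucleic acid, 1.40, 1.29 and 1.60. Tmem173, which encodes STING, lay at 82.9 and 74.7 CPM in PBS, 94.8 and 79.5 in mix, and 84.9 and 84.9 in homo, under the 1.5-fold limit in each library.

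GTPases known chiefly as targets of interferon gamma were higher without exception: 16 of 16 counted in PBS, 16 of 16 in mix and 15 of 15 in homo, at medians of 1.73, 1.49 and 1.82. Gbp2 stood at 446 and 74.2 CPM in PBS, 299.6 and 67.7 in mix, and 291 and 56.4 in homo. Iigp1, an immunity-related GTPase that attacks the vacuoles of parasites, stood at 123 and 15.2 CPM in PBS, 93.4 and 15.5 in mix, and 90.5 and 6.56 in homo. Gbp5 gave log2 ratios of 1.95, 1.57 and 2.27, and Igtp 2.003, 1.73 and 2.20. Several of these genes have close copies, among them Tgtp1 and Tgtp2 and the Gbp cluster.

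Of genes for MHC class I presentation, 7 of 19 were higher in PBS, 7 of 19 in mix and 9 of 19 in homo, and none was lower, with medians of 0.53, 0.45 and 0.50. H2-T22, a nonclassical class I gene, stood at 1072 and 561 CPM in PBS, 1113 and 606 in mix, and 903 and 420 in homo. Tap1, a peptide transporter, gave log2 ratios of 0.70, 0.59 and 0.70. H2-K1 gave 0.32, 0.34 and 0.50, and B2m 0.21, 0.17 and 0.31, both under the limit. Among the Ifitm and Ly6 surface proteins, 4 of 6 were higher in PBS, 0 of 6 in mix and 3 of 6 in homo, at medians of 0.64, 0.44 and 0.58. Ly6c2 stood at 7138 and 4624 CPM in PBS, 7433 and 5249 in mix, and 5296 and 3298 in homo. Ifitm1 gave log2 ratios of 0.14, -0.45 and -0.44, so the members of this list did not move alike.

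**Figure D2:**
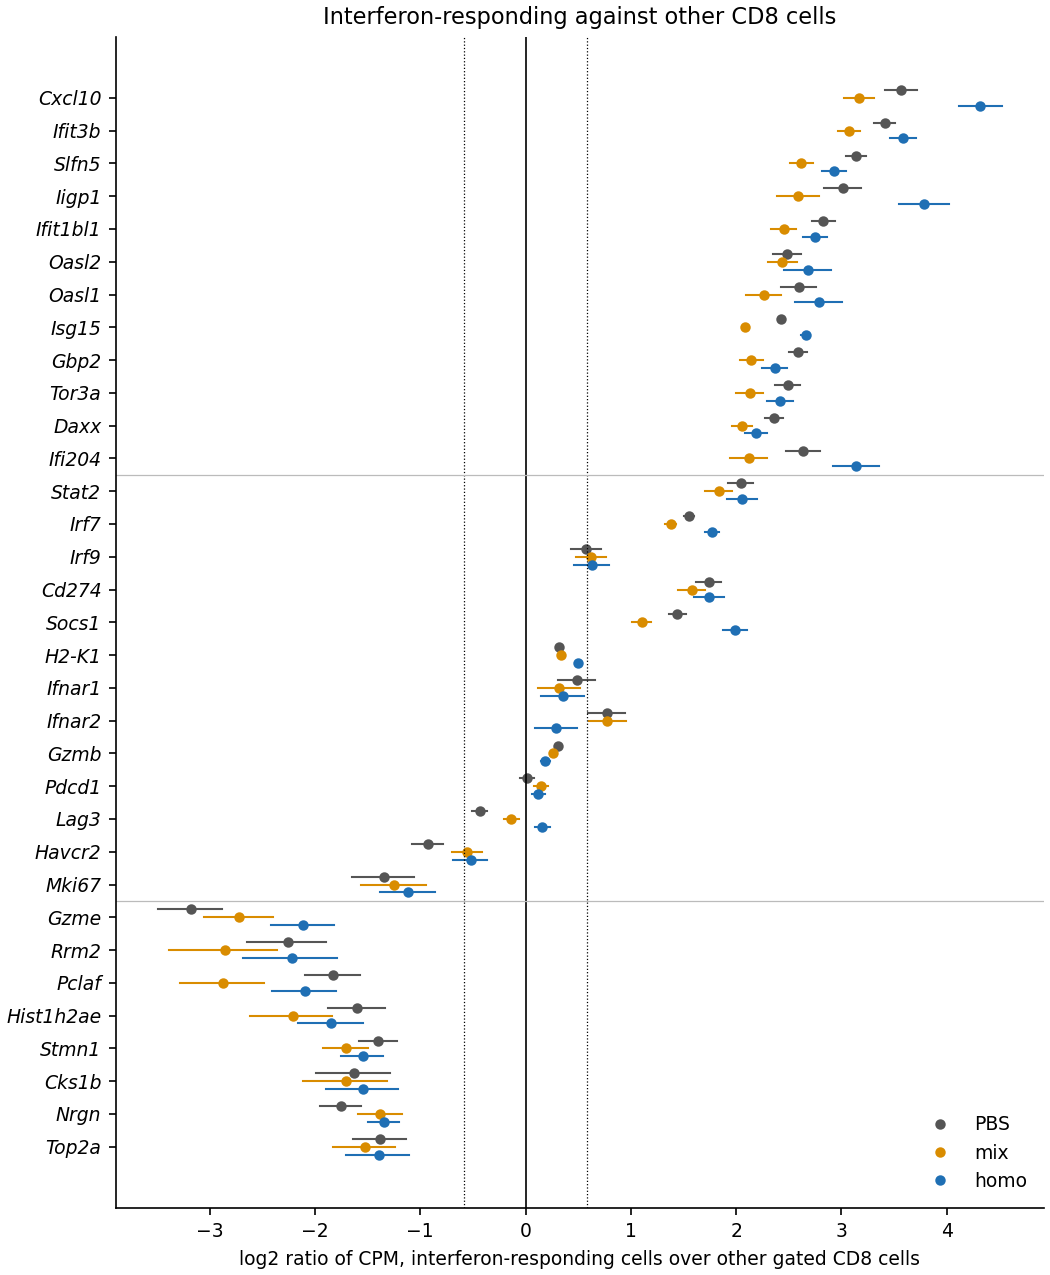
Log2 ratio of CPM (x axis) of interferon-responding over other gated CD8 cells in PBS, mix and homo for the 12 highest named genes (top), genes named whatever their rank (middle) and the 8 lowest named genes (bottom). Lines are exact 95% counting intervals and dotted lines mark 1.5-fold; Cxcl10 reaches 4.32 in homo and Gzme -3.18 in PBS.

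Of the interferon genes themselves, only Ifng reached the level at which genes were counted. It stood at 260 CPM in interferon-responding cells and 380 CPM in others in PBS, 312 and 378 in mix, and 246 and 216 in homo, under 1.5-fold in each library. Of the 21 interferon genes listed, 17 in PBS, 20 in mix and 20 in homo had no UMI in the interferon-responding cells, and Ifnb1 was among them in each library. A count of 0 allows up to 3 UMIs of the 3775752, 3511544 and 2697003 UMIs of these cells in PBS, mix and homo.

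The chains of the type I interferon receptor were present at low levels. Ifnar1 stood at 77.6 and 55.3 CPM in PBS, 67.2 and 53.9 in mix, and 79.3 and 62.2 in homo, under 1.5-fold each time. Ifnar2 stood at 83.7 and 49.0 CPM in PBS, 89.4 and 52.2 in mix, and 84.9 and 69.4 in homo, higher in PBS and mix. Ifngr1 gave log2 ratios of 0.27, 0.28 and -0.12. Among the transducers, Stat2 stood at 200 and 48.6 CPM in PBS, 187 and 52.6 in mix, and 183 and 43.9 in homo, a log2 ratio of 2.04, 1.83 and 2.06. Over receptors, kinases and STATs, 5 of 9 counted genes were higher in PBS, 5 of 9 in mix and 2 of 9 in homo.

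Irf7, which amplifies type I interferon production, stood at 1233 and 421 CPM in PBS, 1187 and 457 in mix, and 818 and 239 in homo. Irf9, a DNA-binding partner of STAT proteins, gave log2 ratios of 0.57, 0.62 and 0.63, at the 1.5-fold limit. Of the interferon regulatory factors, 3 of 5 were higher and 1 lower in PBS, 4 higher and 1 lower in mix, and 4 higher and 0 lower in homo. Irf8 was lower in PBS, at 119 CPM against 312, and in mix, at 153 against 326, and stood at 143 against 159 in homo. Feedback inhibitors were higher in part, 4 of 9 in PBS, 3 of 9 in mix and 2 of 8 in homo. Socs1, which blocks JAK kinases, stood at 391 and 144 CPM in PBS, 355 and 165 in mix, and 295 and 74.2 in homo. Trim21, an antibody receptor inside cells that acts on interferon signalling, gave 1.94, 1.91 and 1.82. Cd274, which encodes the checkpoint ligand PD-L1, stood at 214 and 64.0 CPM in PBS, 195.1 and 65.3 in mix, and 169 and 50.5 in homo.

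On the lower side, genes of cell division stood out. Of the proliferation list, 17 of 19 counted genes were lower in PBS, 19 of 20 in mix and 17 of 19 in homo, none higher, with medians of -1.12, -1.21 and -1.19. Rrm2, a subunit of the enzyme that makes deoxynucleotides, stood at 16.2 CPM against 77.2 in PBS, 9.68 against 69.8 in mix and 16.3 against 76.1 in homo. The 5 cells with the most Rrm2 held 57.4%, 50% and 81.8% of its UMIs in interferon-responding cells, which stood at 6.96, 4.90 and 3.04 CPM without them. Mki67 stood at 26.5 against 67.3 CPM in PBS, 26.2 against 62.1 in mix and 46.7 against 101.4 in homo. Pclaf, Hist1h2ae, Stmn1, Cks1b and Top2a, all high in dividing cells, were among the 8 lowest. Summed over all depths, the list stood at 1869 against 3547 CPM in PBS, 1766 against 3473 in mix and 2061 against 4194 in homo. These sums are a different measure from the medians of gene ratios above. Interferon-responding cells held fewer UMIs, and within tertiles of depth the summed list was closer than over all depths. In the lowest tertile its log2 ratio was -0.39 in PBS, -0.38 in mix and -0.52 in homo, in the middle tertile -0.22, -0.34 and -0.70, and in the highest tertile -0.78, -0.84 and -0.77. The antiviral list summed to 1.04, 0.90 and 1.06 in the lowest tertile and 1.01, 0.86 and 1.09 in the highest, so it barely moved with depth.

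The granzyme genes split. Of the cytotoxic effector genes, 3 of 19 were higher and 6 lower in PBS, 3 of 18 higher and 5 lower in mix, and 0 of 18 higher and 5 lower in homo, at medians of -0.19, -0.06 and 0.11. Gzme, which had the lowest ratio of the named genes in PBS, stood at 24.4 CPM against 220 in PBS, 22.5 against 148 in mix and 35.2 against 152 in homo. Gzmd stood at 46.1 against 366 CPM in PBS, 35.3 against 196 in mix and 92.7 against 221 in homo. In interferon-responding cells, 5 cells held 50%, 82.3% and 46.8% of the Gzmd UMIs and 63.0%, 77.2% and 54.7% of the Gzme UMIs, and without them Gzmd stood at 23.3, 6.34 and 50.3 CPM. Neighbouring genes Gzmc to Gzmg are near copies, and summed Gzmd and Gzme gave log2 ratios, from the lowest to the highest tertile of depth, of -2.30, -2.30 and -2.25 in PBS, -3.97, -1.03 and -2.51 in mix, and -1.74, -1.27 and -1.05 in homo. Prf1, which encodes perforin, stood at 224 against 656 CPM in PBS, 255 against 608 in mix and 152 against 249 in homo. Gzmb, the main killing granzyme, stood at 4430 against 3586 CPM in PBS, 4699 against 3929 in mix and 1884 against 1652 in homo, under the limit over all depths. From the lowest to the highest tertile of depth, its log2 ratio was 0.63, 0.34 and 0.12 in PBS and 0.69, 0.26 and 0.14 in mix. In homo it was 0.65, 0.63 and 0.22. Gzmb was thus past the limit in the lowest tertile of each library and in the middle tertile of homo. Gzmk, a granzyme of less differentiated effector cells, stood at 282 against 157 CPM in PBS, 214 against 87.6 in mix and 210 against 161 in homo.

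Checkpoint receptors were near or under their level in other cells. Pdcd1, which encodes PD-1, gave log2 ratios of 0.01, 0.15 and 0.12, and Lag3 -0.44, -0.13 and 0.16. Havcr2, which encodes TIM-3 and marks terminally exhausted cells, stood at 107 against 204 CPM in PBS, 126 against 185 in mix and 119 against 171 in homo, lower by 1.5-fold in PBS. On the list of inhibitory receptors and exhaustion-associated genes, 3 of 13 were lower in PBS, 1 of 14 in mix and 2 of 13 in homo, and none was higher. Rgs16, an inhibitor of G protein signalling, was lower in each library, at -0.96, -1.01 and -0.82. Tcf7, which encodes the stem-like T cell regulator TCF1, stood at 54.6 against 35.7 CPM in PBS, 57.2 against 41.2 in mix and 44.1 against 44.7 in homo. By tertiles of depth, from the fewest to the most UMIs, its log2 ratio was -0.11, 0.27 and 1.31 in PBS. It was -0.34, 0.0026 and 0.97 in mix, and -0.27, -1.08 and 0.26 in homo. The sign of the value changed with depth in each library, but only in mix did counting intervals lie on opposite sides of 0. The negative value of PBS had an interval of -0.41 to 0.17, and the positive value of homo one of -0.28 to 0.75. Of naive, memory and stem-like genes, 4 of 8 were higher and 1 lower in PBS, 1 of 7 was higher in mix and 0 of 6 in homo. Cxcr3, the receptor for CXCL10, stood at 125 against 48.6 CPM in PBS, 98.5 against 41.5 in mix and 86.4 against 82.6 in homo.

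Of genes induced through the T cell receptor, 7 of 14 were lower and 1 higher in PBS, 2 of 13 lower and 1 higher in mix, and 2 of 12 lower and 1 higher in homo. The higher gene was Cd69 each time, at 358 against 150 CPM in PBS, 316 against 167 in mix and 326 against 156 in homo. CD69 holds T cells in tissue and is induced by type I interferon as well as by antigen. Tnfrsf9, the activation receptor 4-1BB, stood at 462 against 813 CPM in PBS, 536 against 813 in mix and 176 against 276 in homo. Glycolysis genes were lower for 5 of 14 in PBS, 6 of 15 in mix and 0 of 12 in homo. Heat shock and immediate early genes, which respond to tissue digestion, were 1 higher and 1 lower of 21 in PBS and 0 of 21 in mix and 0 of 20 in homo. CD8 T cell markers showed 0 of 10 past the limit in any library, at medians of 0.02, -0.01 and 0.04.

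Among chemokines, 2 of 5 were higher and 3 lower in PBS, 2 of 5 higher in mix and 1 of 5 higher in homo. Of interleukin-2 receptor and STAT5 target genes, 3 of 17 were higher and 2 lower in PBS, 3 of 17 and 2 in mix, and 2 of 15 and 1 in homo. Cell states were read in cells thinned to 2000 UMIs, which left out 67, 57 and 23 interferon-responding cells and 290, 267 and 382 others in PBS, mix and homo. Cells with both Pdcd1 and Havcr2 made up 10.0% of interferon-responding cells and 18.6% of others in PBS, 11.8% and 15.7% in mix, and 13.5% and 18.5% in homo. Without thinning these were 19.9% and 42.8%, 27.5% and 43.1%, and 35.0% and 50.7%. Cells with at least 3 UMIs of Gzmc to Gzmg made up 13.7% and 33.0% in PBS, 12.3% and 26.6% in mix, and 24.2% and 36.8% in homo (unthinned 15.8% and 37.5%, 16.0% and 34.4%, and 32.3% and 48.0%). Cells with Pdcd1 and Tcf7 and without Havcr2 made up 2.97% and 1.29% in PBS, 3.74% and 1.24% in mix, and 2.66% and 2.51% in homo (unthinned 5.26% and 2.94%, 7.30% and 3.05%, and 7.32% and 5.40%). The thinned shares rested on 24, 25 and 11 interferon-responding cells in PBS, mix and homo. Their counting intervals were 1.91 to 4.39% against 1.03 to 1.59% in PBS and 2.43 to 5.47% against 0.95 to 1.59% in mix. In homo they were 1.33 to 4.70% against 2.13 to 2.93%. Cells of 1 library are not replicates, and these differences were not tested.

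Markers of other cells were low. Macrophage markers summed to 110, 167 and 89.4 CPM in interferon-responding cells of PBS, mix and homo and to 204, 220 and 167 CPM in the others, where 7 of the 12, Lyz2, C1qa and Csf1r among them, at 0 in interferon-responding cells of homo. Dendritic cell markers summed to 148, 175 and 17.1 CPM against 73.6, 51.9 and 18.9 CPM, and Flt3 and Clec9a were at 0 in interferon-responding cells of each library. Of these sums, Cd74 gave 80.5, 110 and 4.82 CPM in interferon-responding cells, and 5 cells held 84.9% of its UMIs in PBS and 95.1% in mix. Plasmacytoid dendritic cell markers, a list that holds the interferon-induced gene Bst2, summed to 1917, 1935 and 1380 CPM against 1071, 1207 and 649 CPM, with Siglech at 0 in interferon-responding cells of mix and homo. Natural killer cell markers summed to 423, 469 and 593 CPM against 524, 579 and 591 CPM, and markers of CD4 and regulatory T cells to 368, 425 and 425 CPM against 540, 498 and 435 CPM. The part of these RNAs in the differences between the classes was not tested. Neutrophil markers summed to at most 3.97 CPM and B cell markers to at most 34.2 CPM. An alternative chosen after the data were seen left out only cells with at least 2 UMIs of selected macrophage and dendritic genes. Among these were 19, 13 and 3 interferon-responding cells in PBS, mix and homo. A UMI of a macrophage marker was found in 10.6%, 16.0% and 19.5% of interferon-responding cells, so most such cells stayed in. With this alternative, 219 genes were higher and 55 lower in all 3 libraries, against 221 and 57.

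The levels of gene groups were also followed over bins of the score, which shows whether they stepped at the limit. Antiviral genes outside the score summed to 9670 CPM in PBS cells with a score of 0, 19896 at scores of 10 to 20, 28837 from the limit to 50 and 35127 from 50 up. In mix they ran from 10047 to 35229 CPM and in homo from 8990 to 33115 CPM. Interferon-gamma GTPases ran from 782 to 5821 CPM in PBS, 867 to 5665 in mix and 667 to 5042 in homo. There was no step at the limit, and the libraries stayed close at equal score, homo lowest in each bin of both groups. Gzmd ran from 461 to 28.8 CPM in PBS, 279 to 23.1 in mix and 255 to 40.0 in homo between the lowest and the highest bin. Havcr2 ran from 259 to 86.9 CPM in PBS, 210 to 110 in mix and 184 to 94.2 in homo. Heat shock and immediate early genes changed little along the score, from 10664 to 11231 CPM in PBS, 10974 to 10784 in mix and 7658 to 7002 in homo.

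**Figure D3:**
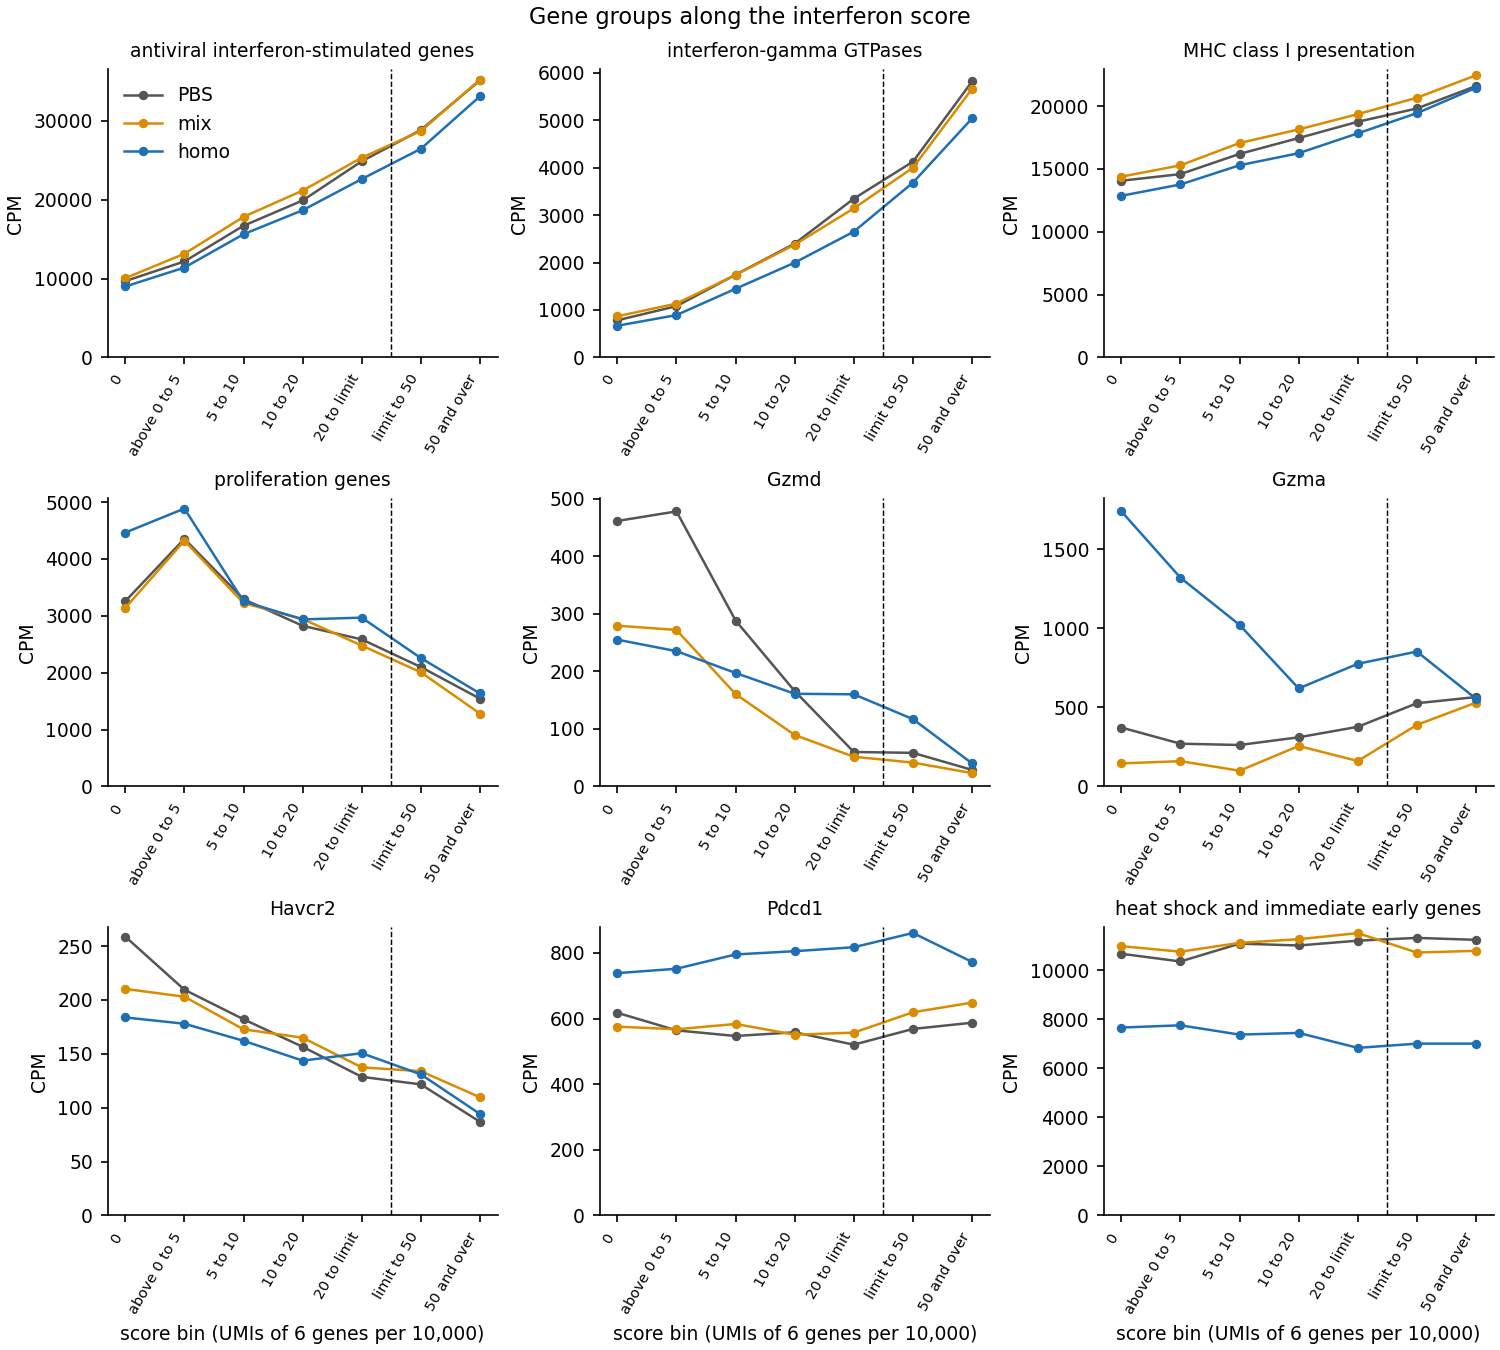
Summed CPM of gene groups or single genes (y axes) in bins of the score (x axes) in PBS, mix and homo, with genes of the score left out and the limit as a dashed line. Antiviral genes and GTPases increase from bin to bin on both sides of the limit, Gzmd and Havcr2 decrease, and Gzma goes from 1741 to 555 CPM in homo and from 373 to 566 CPM in PBS.

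Interferon-responding cells of different libraries were compared next. Homo against PBS, 104 of 2999 genes (3.47%) were higher and 193 (6.44%) lower. Homo against mix, 84 of 2982 (2.82%) were higher and 150 (5.03%) lower. Mix against PBS gave 16 higher (0.538%) and 21 lower (0.707%) of 2972, so mix and PBS lay closest. When libraries were scaled by the median of gene ratios instead of total UMIs, the counts for homo over PBS were 154 higher and 123 lower and for homo over mix 109 and 117, so the split depends on the scaling. The median log2 ratio over all counted genes was -0.08 for homo over PBS, -0.08 for homo over mix and -0.01 for mix over PBS. The comparisons share their libraries and are not independent of each other.

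The levels of the 6 score genes in these cells were fixed by the common limit and are not compared between libraries. Antiviral genes outside the score vary with it and were brought along by the same limit in each library. They gave 0 higher and 2 lower of 46 for homo over PBS, 0 and 0 of 47 for mix over PBS, and 0 and 3 of 47 for homo over mix, at medians of -0.10, -0.02 and -0.08. Oasl2 was among the lower genes, at 188 CPM in PBS, 187 in mix and 79.3 in homo. Some other interferon lists held lower genes for homo over PBS and no higher gene. These were 2 of 5 regulatory factors, 2 of 9 feedback inhibitors, 1 of 16 GTPases and 1 of 9 receptors, kinases and STATs. Their medians were -0.12, -0.14, -0.20 and -0.02, beside -0.08 over all counted genes. Of all counted genes, 6.44% were lower for homo over PBS and 5.03% for homo over mix, so counts of 1 or 2 genes say little about a list. The Ifitm and Ly6 surface proteins went the other way, with 2 of 6 higher and 0 lower. Irf7 stood at 1233, 1187 and 818 CPM in PBS, mix and homo, a log2 ratio of -0.59 for homo over PBS. Irf1, a factor induced by interferon gamma, stood at 233, 208 and 152 CPM, a ratio of -0.62. Ifngr1 stood at 809, 756 and 511 CPM, a ratio of -0.66. With libraries scaled by the median of gene ratios, the ratios of Irf7 and Ifngr1 for homo over PBS were -0.51 and -0.58, under 1.5-fold. For mix over PBS, 1 of 6 Ifitm and Ly6 genes was lower, and the other lists named here gave no gene past the limit. In the other gated CD8 cells, 142 of 3009 counted genes (4.72%) were lower and 96 (3.19%) higher for homo over PBS, and 151 of 3008 (5.02%) lower and 87 (2.89%) higher for homo over mix. There the antiviral list had a median of -0.35 for homo over mix with 6 of 35 genes lower and 1 higher, and -0.08 for homo over PBS with 3 of 33 lower and 1 higher.

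Genes outside the program separated homo from both other libraries. Klf2, a factor that keeps T cells circulating, stood at 337 CPM in PBS, 198 in mix and 44.9 in homo, a log2 ratio of -2.91 (-3.19 to -2.64) for homo over PBS, and -1.73 in the other gated CD8 cells. Dusp1, an immediate early phosphatase, stood at 385, 294 and 99.4 CPM, and the heat shock gene Hspa1b, which has the near copy Hspa1a, at 222, 202 and 52.3 CPM. Over heat shock and immediate early genes, 12 of 20 were lower in homo than PBS and 15 of 21 lower than in mix, at medians of -0.75 and -0.87, beside 11 of 21 and 12 of 21 in the other cells at -0.59 and -0.77. Of all counted genes in the other cells, 4.72% were lower in homo than PBS and 5.02% lower than in mix. Heat shock and immediate early genes respond to tissue dissociation, whose part in the differences between libraries was not tested. Ccl5, a T cell chemokine, stood at 5136, 3968 and 1754 CPM, a log2 ratio of -1.55 for homo over PBS, and -0.61 in other cells. Gzmb stood at 4430, 4699 and 1884 CPM, a ratio of -1.23 (-1.28 to -1.19) for homo over PBS and -1.12 in other cells.

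Targets of interleukin-2 and STAT5 were lower in homo, 8 of 17 against PBS and 9 of 17 against mix, with none higher and medians of -0.58 and -0.75. In the other gated CD8 cells it was 10 of 16 in both comparisons, at -0.92 and -1.03. Of all counted genes in those cells, 4.72% were lower for homo over PBS and 5.02% for homo over mix. Socs3, a feedback inhibitor of cytokine receptors, stood at 68.1 CPM in PBS, 76.0 in mix and 15.2 in homo. Cish, which limits interleukin-2 signalling, stood at 191, 214 and 92.7 CPM. Il2ra, the high-affinity receptor chain, stood at 56.9, 59.2 and 57.5 CPM and did not separate the libraries. Trim30c, a TRIM family gene, stood at 66.5, 50.4 and 7.79 CPM. Its UMIs were found in 17.0%, 14.7% and 3.66% of interferon-responding cells of PBS, mix and homo. In the other gated CD8 cells they were found in 2.19%, 2.07% and 0.509%. Hmgn1, a nucleosome-binding protein, stood at 57.5, 51.0 and 10.8 CPM, and Serpinb9b, a serpin, at 74.4, 40.4 and 11.9 CPM.

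Higher in homo stood Ifitm2, an antiviral membrane protein, at 443 CPM in PBS, 346 in mix and 920 in homo. Its log2 ratio was 1.05 for homo over PBS and 1.41 for homo over mix. Ifitm1 stood at 1692, 1025 and 2644 CPM, and the division gene Ube2c at 38.4, 39.3 and 109 CPM. Ube2c was the 1 gene of 9 counted on the proliferation list that was higher for homo over PBS. The 5 cells with the most held 59.3%, 47.8% and 36.4% of its UMIs, and without them its log2 ratio was 2.17 in place of 1.51. Serpinb6a stood at 97.7, 109 and 220 CPM, Napsa at 51.1, 68.1 and 121 CPM, Xdh at 74.4, 94.8 and 166 CPM and St6galnac3 at 32.8, 39.6 and 79.3 CPM. Nrgn, a calmodulin-binding protein, stood at 58.8, 56.4 and 138 CPM although it was lower in interferon-responding than in other cells within each library. Of inhibitory receptors and exhaustion-associated genes, 4 of 14 were higher and 2 lower for homo over PBS, 1 of 12 higher for mix over PBS, and 1 of 14 higher and 1 lower for homo over mix. Tox, a driver of exhaustion, stood at 127, 203 and 233 CPM, with homo close to mix. Pdcd1 stood at 576, 629 and 833 CPM, under 1.5-fold in each pair, and at a log2 ratio of 0.62 for homo over PBS, past it, when scaled by the median of gene ratios. Gzmc stood at 296, 160 and 520 CPM, where 5 cells held 45.3%, 45.6% and 32.5% of the UMIs.

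For some genes a few cells held most of the UMIs. Xcl1, a chemokine for cross-presenting dendritic cells, had the highest rank for homo over PBS, at 26.0 and 88.6 CPM, but 5 cells held 82.4% of its UMIs in homo and the log2 ratio of 1.77 became 0.13 without the 5 cells with the most in each library. Cd74, the lowest for homo over PBS at -4.06, stood at 12.3, 5.46 and 1.14 CPM in PBS, mix and homo without such cells, a ratio of -3.44. Ccl3, higher in mix than PBS by 1.05 on the log2 scale, was higher by 0.74 without them. Spp1, a secreted protein abundant in macrophages, stood at 57.5 CPM in PBS and 138 in mix, and 5 cells held 71.4% and 52.6% of its UMIs. Without them its log2 ratio for mix over PBS was larger, 1.99 against 1.26.

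Between mix and PBS, 1 of 11 glycolysis genes was higher, at a median of 0.15, and none was lower. That gene, Gapdh, stood at 1386 CPM in PBS and 2210 in mix, a log2 ratio of 0.67 (0.62 to 0.72), and Fah, an enzyme of tyrosine breakdown, at 95.1 and 174 CPM. On the lower side, Anxa1, a phospholipid-binding protein, stood at 62.5 CPM in PBS and 27.9 in mix, the integrins Itgb7 at 155 and 82.3 and Itgb1 at 247 and 145, and Cd7 at 82.4 and 41.9 CPM. Klf2, Gzmc, Ifitm1 and Serpinb9b were among the 8 lowest as well, at log2 ratios of -0.77, -0.89, -0.72 and -0.88. In other gated CD8 cells Itgb1 gave -0.11 and Cd7 -0.29, against -0.77 and -0.98 in interferon-responding cells, and this difference between classes was not tested.

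**Figure D4:**
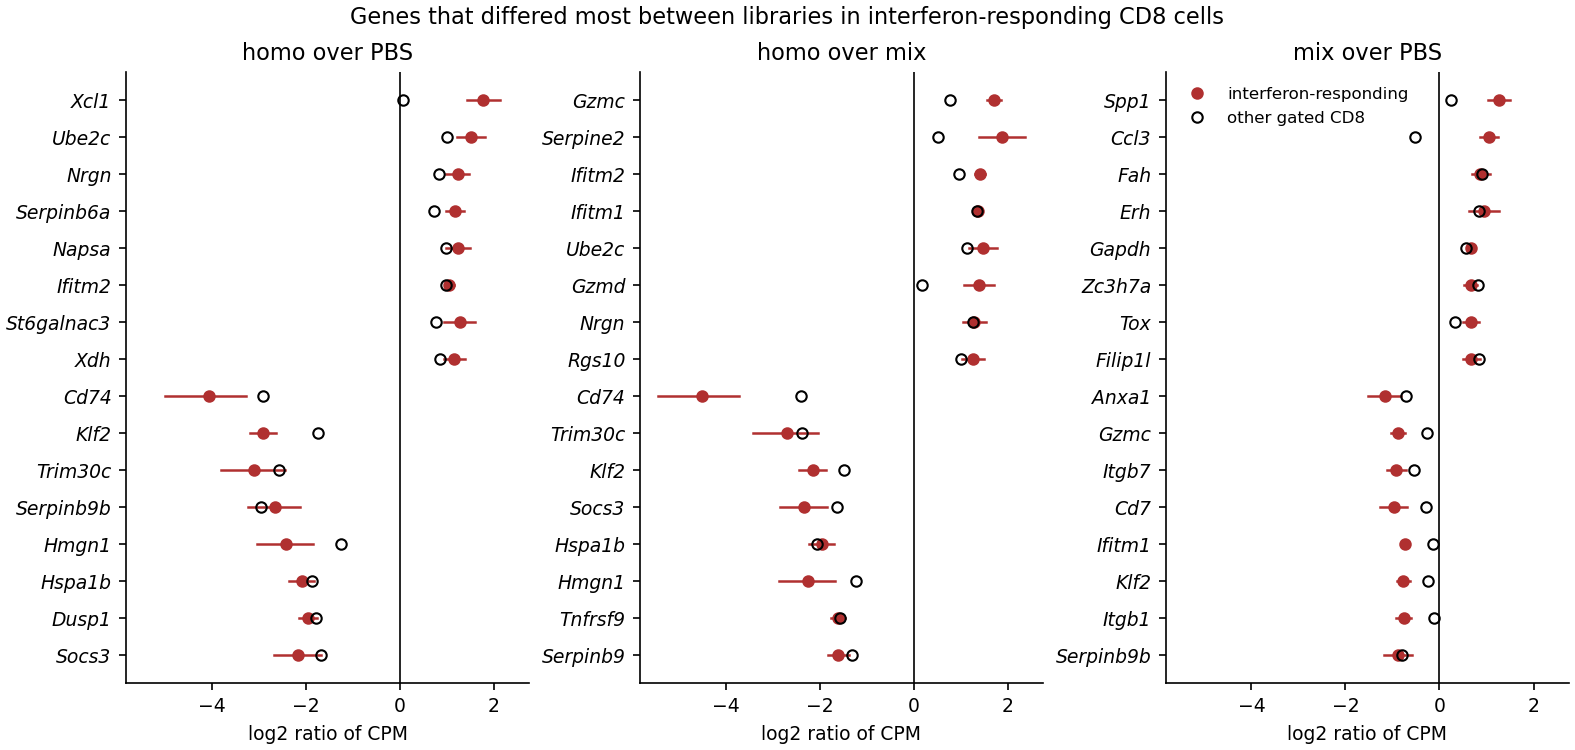
Log2 ratio of CPM (x axes) between libraries for the 8 highest and 8 lowest named genes of each pair, in interferon-responding cells (filled, with exact 95% counting intervals) and in other gated CD8 cells (open). Most open points lie on the same side of 0 as the filled ones; Xcl1 lies at 1.77 in interferon-responding and 0.07 in other cells for homo over PBS.

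The called genes were shared in part with the other gated CD8 cells of the same libraries. Of the 193 genes lower in homo than PBS in interferon-responding cells and the 142 in other cells, 74 were in both, which is 38.3% of the first list and 52.1% of the second, beside 6.44% and 4.72% of all counted genes in these classes. Of the 104 and 96 higher, 52 were in both, 50% and 54.2%, beside 3.47% and 3.19% of all counted genes. For homo over mix, of the 84 and 87 higher genes, 43 were in both, 51.2% and 49.4%, beside 2.82% and 2.89% of all counted genes. Of the 150 and 151 lower, 67 were in both, 44.7% and 44.4%, beside 5.03% and 5.02%. For mix over PBS, of the 16 and 15 higher genes, 8 were in both, 50% and 53.3%, beside 0.538% and 0.509%. Of the 21 and 13 lower, 5 were in both, 23.8% and 38.5%, beside 0.707% and 0.441%.

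The promoter motif shown above was then counted over gene groups, in windows of 300 bases from RefSeq. The ISRE core, GAAANNGAAA on either strand, occurred in 3.99% of 27025 genes and in 6.56% of the 2255 counted genes that had a window. Of the genes higher in all 3 libraries outside the score, 175 of 215 had a window and 60 of these (34.3%) held the core. Of those lower in all 3, 2 of 50 (4%) held it. By role, the core stood in 9 of 10 interferon-gamma GTPases, 8 of 14 sensors, 15 of 43 antiviral genes, 5 of 16 MHC class I genes and 0 of 26 proliferation genes. The GAS core, TTCNNNGAA, read on either strand and free to overlap an ISRE core, stood in 9.55% of all genes, in 13.1% of the higher genes and in 6 of 10 GTPases. A match is a description of these letters and no evidence of binding.

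**Figure D5:**
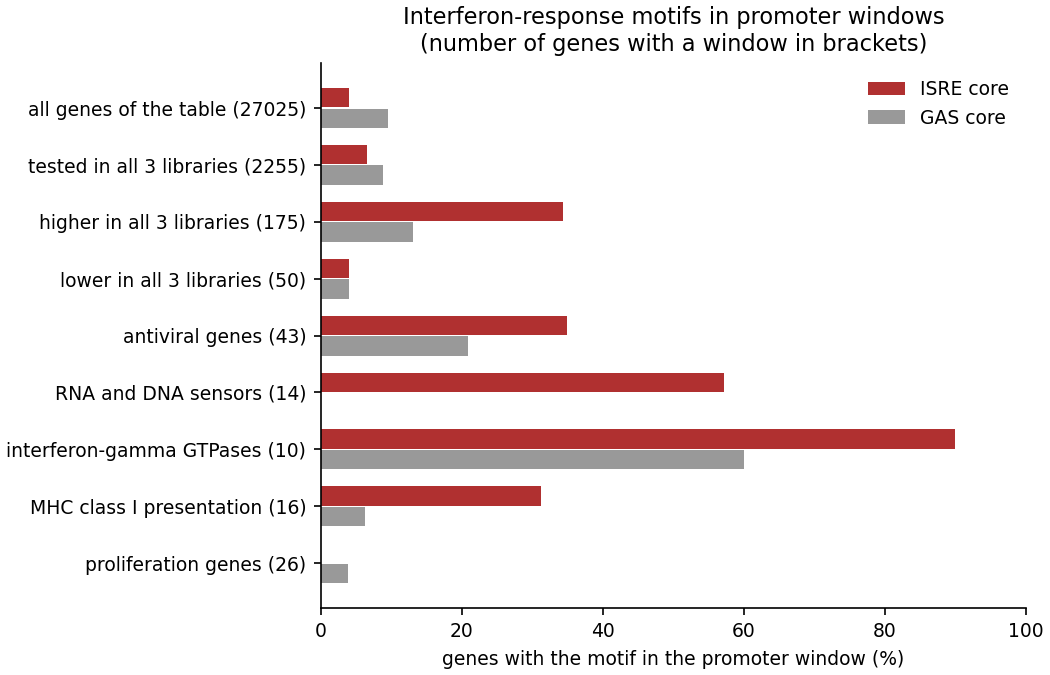
Percent of genes (x axis) with an ISRE core or a GAS core in the promoter window, for all genes of the RefSeq table, genes counted in all 3 libraries, genes higher or lower in interferon-responding cells in all 3, and gene groups, with the number of genes in brackets. The ISRE bar is 3.99% for all genes, 34.3% for the higher genes and 90% for the GTPases.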

How the data were processed

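Raw UMI counts per gene and barcode were used as deposited; per the file headers, the authors counted with Cell Ranger 7.1.0. Versions listed in the submitters' processing notes differ (Cell Ranger 2.1.1), and mm39 and Seurat 4.1.0 are listed there too. Coordinates printed come from RefSeq windows on GRCm38.p6 and are not those of the counts. Tools were pandas 2.3.3, scipy 1.17.1 and numpy 2.4.6 under Python 3.11.15. UMIs were summed per library and class and scaled to CPM; ratios carry exact conditional binomial 95% intervals and shares exact Clopper-Pearson intervals, both for counting error only. PCR and cells of 1 library are not replicates, so nothing was tested. The contrast was checked on simulated counts. Scrublet in scanpy 1.11.5 gave doublet scores, whose own threshold marked too few cells, so the highest-scoring cells, 0.8% for each 1000 barcodes, were left out as an alternative. The 29 gene lists, the members and the alternatives were chosen with earlier results of these data known. Named genes were the 12 highest and 8 lowest against other cells by the interval end nearest 0 in the least favourable library, and the 8 highest and 8 lowest between libraries, without T cell receptor, immunoglobulin, mitochondrial, ribosomal, haemoglobin and sex-linked genes and unnamed models. Depth tertiles, leaving out cells with at least 2 UMIs of selected macrophage and dendritic genes, and leaving out the 5 cells richest in a gene were added after the data were seen. 1 gene that the rule for named genes would include is not reported here.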

Additional observations from a re-analysis of the deposited data

Results flagged for a closer look

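Gzma, a granzyme of cytotoxic and resident T cells, differed in direction between the libraries. In interferon-responding against other gated CD8 cells its log2 ratio was 0.81 in PBS (543 against 310 CPM), 1.42 in mix (436 against 163 CPM) and -0.74 in homo (759 against 1268.5 CPM). The difference between libraries was not tested, with 1 library per group. In homo, 5 cells held 53.4% of the Gzma UMIs of interferon-responding cells, and 14.3% in PBS and 26.2% in mix. Without those cells the interferon-responding cells stood at 467, 325 and 362 CPM. By tertiles of depth, from the fewest to the most UMIs, the log2 ratio was 0.95, 0.01 and -0.67 in PBS, 0.59, 2.21 and 1.46 in mix, and -1.22, -1.58 and -0.08 in homo.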

How the results depend on the processing

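Of the values that answer a comparison, 122 under the alternatives stayed within the bounds set for them, 44 moved and 1 changed sign. Of the other values 3698 stayed, 661 moved and 3 changed sign. A sign change was counted only for gene or list values past 1.5-fold and for ratios of shares whose interval did not include equal shares. Any other change of sign was filed as stayed or moved by the bounds alone. No paired analysis was possible because each group is 1 library. Shares: the log2 ratio of shares for homo over PBS was -1.06 with the top 5% chosen, -0.68 with the top 20%, -0.63 with a score without Ifit1, Ifit2 and Ifit3, and -1.05, 0.0161 and -0.11 in the lowest, middle and highest tertile of depth. For mix over PBS it was -0.036 with the top 5%, 0.34 without the Ifit genes and 0.59 in the middle tertile, and for homo over mix -0.57 in the middle and -0.30 in the highest tertile. Counts of genes lower in all 3 libraries were 29 with the top 20%, 22 with thinned cells, 26 without the Ifit genes and 28 with the mean of per-cell CPM. With the top 5%, 39 genes were higher in mix than PBS and 229 lower in homo than mix. With thinned cells, 292 genes were lower in homo than PBS, 240 lower in homo than mix, and 42 higher and 42 lower in mix than PBS. With median-ratio scaling, 123 were lower in homo than PBS. From 10 CPM, 253 were lower in all 3, 376 higher and 779 lower in homo than PBS, 167 and 192 in mix than PBS, and 327 and 719 in homo than mix. From 200 CPM, 89 were higher and 11 lower in all 3, and the same pairs gave 28 and 51, 5 and 4, and 21 and 38. At 2-fold, 120 were higher and 19 lower in all 3, and the pairs gave 27 and 51, 5 and 5, and 25 and 41. Xcl1 for homo over PBS was -0.034 with the top 5%, Ccl3 for mix over PBS -0.043 with the top 20%, and Gzmc for mix over PBS 0.20 with thinned cells. The cause was not tested; the stricter limits count fewer genes by construction. Without the highest doublet scores, 228 genes were higher and 58 lower in all 3. Of the cells chosen, 73.8% were also chosen without the Ifit genes, 90.1% without Rsad2 and Cmpk2 and 91.2% without Usp18. With 437 interferon-responding cells in homo, genes near 50 CPM rest on few UMIs.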
